A study of Mus musculus with 81 samples.

Results

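Regional variation was examined within 6 thymic lymphomas of p53+/- mice that had received doxycycline, each sampled at 4 or 5 separate places. A library belonged to the set when its label named it a multifocal biopsy of a thymic lymphoma from a doxycycline-treated p53+/- animal. The rule found 25 libraries of the 81 in the series. Tumour 862 gave 5 regions (biopsies 1, 3, 5, 7 and 9), and the other 5 tumours gave 4 each: 884 (2, 5, 6 and 8), 894 and 903 (1, 3, 5 and 7), and 905 and 908 (3, 5, 7 and 9). Each region was sequenced as 1 library, so no region had a replicate of its own, and regions were compared as repeated samples of 1 tumour.

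RNA sequencing measured expression in the thymus of mice on a mixed background labelled C57BL/6 x 129S4Sv/Jae. Every animal, controls included, carried a Plk4 transgene at Col1a1, written Plk4(Col1a1), with rtTA(Rosa) and centrin-GFP(Rosa). The 6 tumours came from p53+/- animals given doxycycline for 2 weeks from 30 days of age, and 5 of those animals were labelled female and 1, mouse 908, male. For comparison there were 3 multiply biopsied lymphomas of p53-/- mice with the same doxycycline course (12 regions), 4 of untreated p53-/- mice (17 regions) and 8 normal thymuses of untreated p53+/+ mice. Of these p53-/- mice, 869 and 870, both treated, were labelled female and the others male. The normal thymuses came from both sexes. The labels do not say in which cells rtTA was expressed. No untreated p53+/- lymphoma was analysed here.

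Centrioles are copied once per cell cycle under the kinase Plk4, an excess of which gives cells extra centrosomes and chromosomes that segregate unequally. p53 is the tumour suppressor that stops such cells from dividing. A thymic lymphoma grows from a T-cell precursor inside an organ that also holds epithelium, macrophages, dendritic cells, fibroblasts, vessels and, at its edge, fat, so a biopsy mixes lymphoma cells with whatever tissue lies at that place. A thymocyte joins a variable segment of the T-cell receptor beta locus to the rest of the gene, and its descendants carry the same join. In bulk tissue of this kind, fewer cells of a type and less RNA per cell cannot be told apart.

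The beta variable segments are shown first because they mark the tumours and, in 1 tumour, the regions. The variable exons below, or for Trbv20 the last 300 bases of it, are from the GENCODE M21 annotation of GRCm38 (plus strand, 5′ to 3′), and the capitals mark the last TGT codon, which encodes the cysteine at which the receptor's junction begins, and the bases after it. Trbv13-2 lies at chr6:41121539-41121832, Trbv13-3 at chr6:41130292-41130585 and the shown bases of Trbv20 at chr6:41188678-41188977. Trbv13-2 and Trbv13-3 were identical at 91.8% of aligned bases, with a shared run of up to 50 bases, so short reads can be divided between them by estimation. Trbv13-2 and Trbv20 were identical at 50.8% of aligned bases and shared no run longer than 8.
Trbv13-2: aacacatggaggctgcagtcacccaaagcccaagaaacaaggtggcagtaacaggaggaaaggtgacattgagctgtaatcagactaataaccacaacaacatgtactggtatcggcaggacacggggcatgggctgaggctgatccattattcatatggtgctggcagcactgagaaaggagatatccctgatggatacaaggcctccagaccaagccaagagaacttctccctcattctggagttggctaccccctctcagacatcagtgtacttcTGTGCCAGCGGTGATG
Trbv13-3: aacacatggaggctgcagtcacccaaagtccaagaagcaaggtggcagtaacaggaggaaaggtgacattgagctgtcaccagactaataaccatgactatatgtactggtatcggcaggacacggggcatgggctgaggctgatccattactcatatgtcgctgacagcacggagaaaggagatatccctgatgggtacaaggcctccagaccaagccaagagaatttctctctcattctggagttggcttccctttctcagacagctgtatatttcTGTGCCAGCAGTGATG
Trbv20: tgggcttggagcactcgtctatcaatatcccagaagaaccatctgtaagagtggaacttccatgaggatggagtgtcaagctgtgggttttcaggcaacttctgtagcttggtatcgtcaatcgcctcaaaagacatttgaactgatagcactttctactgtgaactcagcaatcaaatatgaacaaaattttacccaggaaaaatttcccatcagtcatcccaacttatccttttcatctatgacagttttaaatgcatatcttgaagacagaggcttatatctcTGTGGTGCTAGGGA

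Library totals of the 25 regions in units of 1e6 counts ran from 3.81 to 26.87, with a median of 15.8. Those of comparison tumour 857, a treated p53-/- tumour, were lower and ran from 1.03 to 5.03. The sex genes matched the label in 25 of 25 libraries of the p53+/- tumours. They did not in tumours 869 and 870 of the treated p53-/- group, labelled female. There Xist was at most 0.35 CPM and Y-linked genes summed to 42.04 to 144.24 CPM on library totals. By these genes every multiply biopsied p53-/- tumour read as male, and 5 of the 6 p53+/- tumours as female. Sex and genotype were therefore not separated in comparisons between these groups. T-lineage genes, the defining markers of the labelled tumour type, summed to 4390 to 7880 CPM in the 25 regions and to 1000 to 8570 CPM in normal thymus. Region 7 of tumour 862, region 2 of tumour 884 and region 7 of tumour 908 stood apart from the other 22 libraries as follows. The pseudogene Rpl10-ps1 was at 0 CPM (counts per 1e6 counts of the library) in all 3 and at 89.5 to 683.4 in the others on the same scale. The gene AC147512.2 was at 180.5 to 295.3 CPM against 0 to 3.2. In the whole series 15 libraries had this pattern, among them 7 of the 8 normal p53+/+ thymuses. The labels give no batch, and what sets these libraries apart was not tested. Region 3 of tumour 894 had 7.54% of its counts on the ribosomal RNA gene CT010467.1, against 0.12% to 1.26% in the other 24 libraries. The T-lineage sums and all gene values given for the regions from here on are CPM on library sizes scaled by TMM, and those in normal thymus are CPM on library totals. Results are given with all 25 libraries, and for the gene lists a count that changed in the 22 is given beside it.

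Most expression differences lay between tumours, and a smaller set of genes varied from place to place inside them. Of 11104 genes with a mean of at least 5 CPM, 10387 (93.5%) differed between the 6 tumours by more than their regions did (edgeR quasi-likelihood F-test, Benjamini-Hochberg adjusted p under 0.05), and 10651 of 11046 did in the 22 libraries. In the variance of log2(CPM + 1), the within-tumour part of the median gene was 27%, and it fell to 20% without the 3 libraries. The median standard deviation (SD) was 0.25 log2 within tumours and 0.39 between them. For 2001 genes (18%) more than 50% of the variance lay within tumours. Expected counting error made up 7.4% of the within-tumour variance of the median gene.

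Region-variable genes are those whose spread inside tumours exceeded that of genes of like abundance, by the goodness-of-fit of the edgeR tumour model with trended dispersion. There were 1151 of 11104 (10.4%), with a median within-tumour SD of 0.63 log2, and DESeq2's dispersion outliers, another rule, numbered 234. The 22 libraries gave 1040 of 11046 (9.42%), and of the 1120 called genes tested in both sets 809 were called in both. Protein-coding genes were called in 912 of 10435 cases (8.7%), and annotated pseudogenes in 156 of 375 (41.6%). Tumours did not contribute evenly: 29% of the within-tumour sum of squares came from tumour 884, 22% from 862, 18.7% from 908, 15.4% from 905, 10.2% from 894 and 4.7% from 903. Region 2 of tumour 884 alone held 16.8% and region 9 of tumour 862 held 8.7%.

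The keratins of thymic epithelium, the scaffold on which thymocytes mature, were among the genes that varied most between regions. Of the 7 measured members of the epithelial list, 6 were region-variable, against 10.4% of all genes, and the list's median within-tumour SD was 1.22 log2 against 0.25 over all genes. With a minimum of 20 CPM, which leaves Ly75 and Cldn4, the median was 0.36. Krt5, a keratin of medullary epithelium (GRCm38 chromosome 15, start 101707070, end 101712898), was at 13.9, 64.9, 0 and 55.5 CPM in regions 3, 5, 7 and 9 of tumour 905. In tumour 908 it was at 14.6, 27.1, 14.6 and 0 CPM, and in tumour 903 at 0.212, 8.08, 13.3 and 0 CPM. In 3 of the 6 tumours a region without a Krt5 count was thus found together with regions above 10 CPM.

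In tumour 862 the 5 regions gave Krt5 at 1.41, 4.61, 42.2, 16.0 and 18.3 CPM. In tumour 884 it was at 52.3, 27.5, 11.2 and 26.1 CPM, and in tumour 894 at 2.72, 0.514, 5.19 and 6.49 CPM. Every region of tumour 884 was above 10 CPM for Krt5 and every region of tumour 894 below it. Its within-tumour SD was 1.85 log2 (edgeR goodness-of-fit adjusted p = 1.87e-73), and 89.7% of its variance lay within tumours. With 0 taken as 3 counts of the library, region 7 of tumour 905 was at least 282-fold lower than region 5, and region 9 of tumour 908 at least 171-fold lower than its region 5.

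Other epithelial genes had the same low region in tumour 905. Krt8, the keratin of cortical epithelium, was at 28.3, 74.4, 0 and 69.0 CPM in tumour 905 and had an SD of 1.83. Krt17 was at 17, 54.7, 0 and 58.4 CPM there, with an SD of 1.72. Fcgbp, a mucin-like protein of epithelial secretions, was at 13.7, 90.4, 0 and 65.5 CPM there, with an SD of 2.01. All 4 genes, Krt5 included, were at 0 in region 7 of that tumour. In the 22 libraries 5 epithelial genes were called, and Aire fell below the abundance minimum. Aire, which lets medullary epithelium display genes of other tissues, was at 6.13, 17.9, 0 and 17.1 CPM in those regions. Csn2, the milk protein beta-casein, was at 12, 27.7, 0 and 22.9 CPM, and in tumour 884 at 38.7, 8.58, 3.22 and 1.07 CPM.

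Foxn1, the regulator of thymic epithelium, and the cortical epithelial genes Psmb11 and Prss16 were below the abundance minimum, with the highest region at 3.75, 0.592 and 1.81 CPM against medians of 17.4, 61.1 and 681 in normal thymus. Ly75 and Cldn4, also on the list, had SDs of 0.27 and 0.44, and Ly75 was not region-variable. Ccl21a, a chemokine that draws T cells, ran from 26.4 to 181 CPM in tumour 905 and from 0.879 to 73.9 in tumour 903, with an SD of 1.78. It has near-identical neighbours, so how its reads were divided makes its level uncertain.

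**Figure D1:**
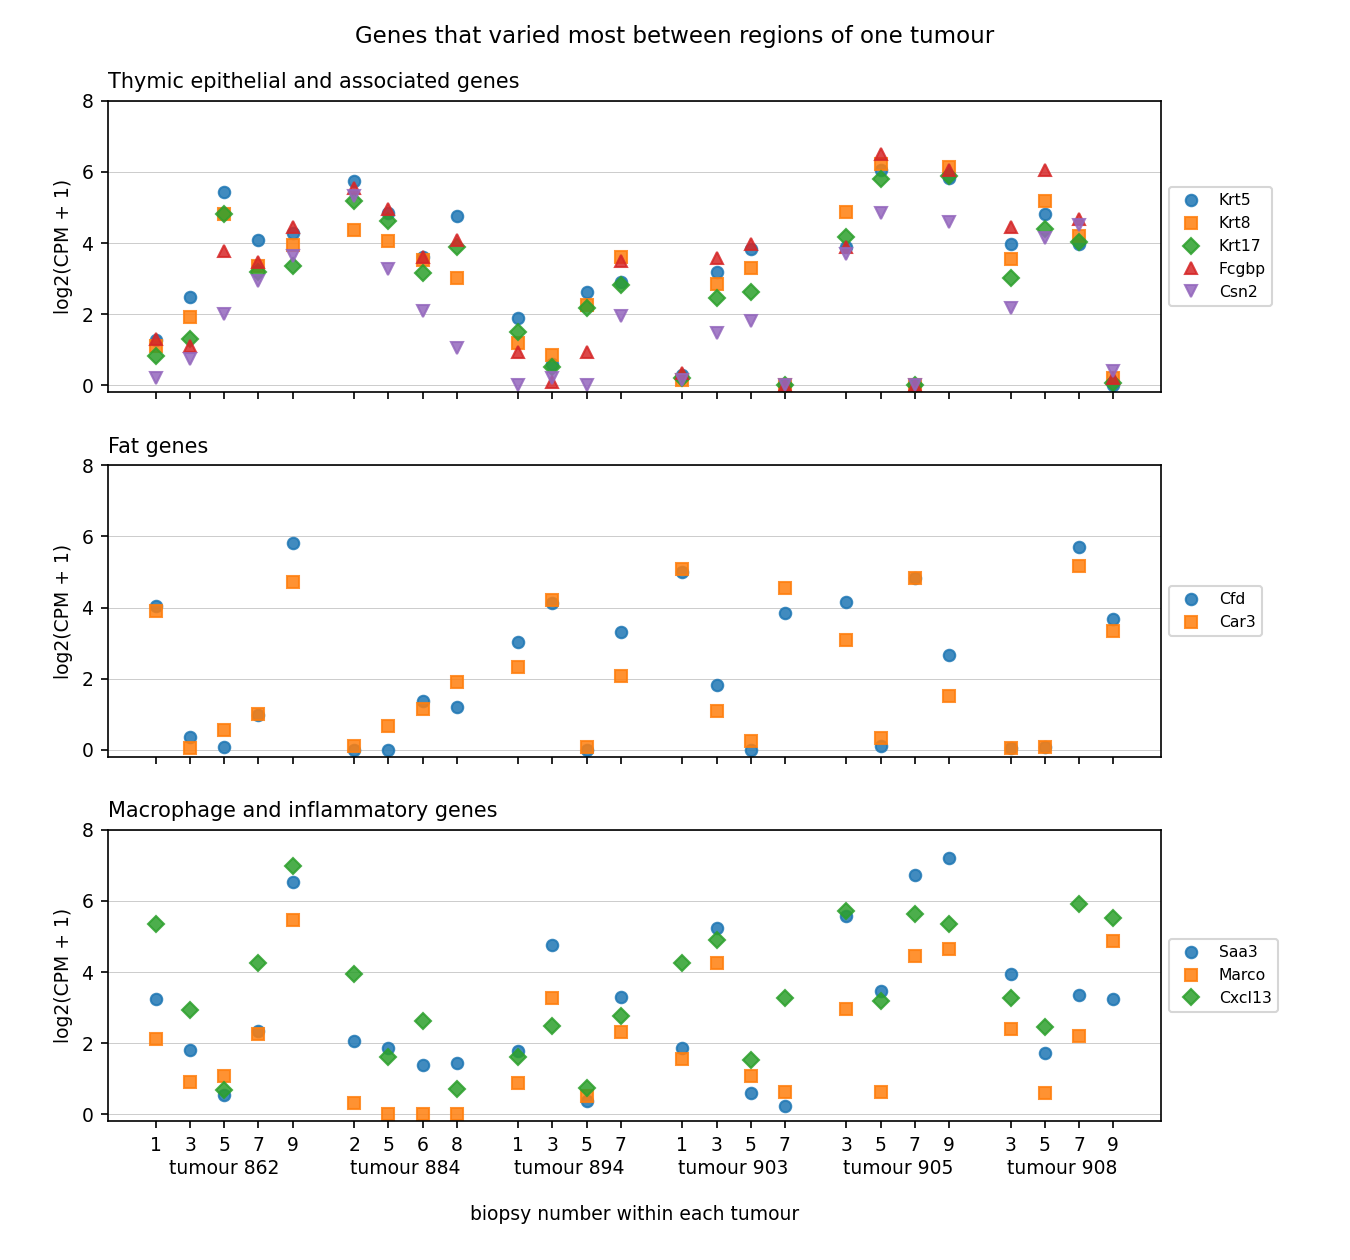
Values of 10 region-variable genes in each of the 25 regions, as log2(CPM + 1) on the vertical axis and biopsy number by tumour on the horizontal axis, with 1 point per library and gene. Epithelial genes (top) sit near 0 in regions 1 and 7 of tumour 903, region 7 of tumour 905 and region 9 of tumour 908, where Cfd (middle) is at 11.8 to 30.9 CPM. Cfd is also high with epithelial genes present, as in region 9 of tumour 862 (55.0 CPM) and region 7 of tumour 908 (50.8 CPM).

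Fat genes also varied from place to place. All 4 measured members of the fat list were region-variable, against 10.4% of all genes, with a median SD of 1.42 log2, or 0.79 with a minimum of 20 CPM, which leaves Fabp4 and Lpl. Cfd, the adipose-secreted complement factor adipsin (chromosome 10, start 79890853, end 79892655), was at 30.9, 2.51, 0 and 13.5 CPM in tumour 903 and at 17, 0.067, 27.6 and 5.36 in tumour 905. In tumour 908 it was at 0.0418, 0.047, 50.8 and 11.8 CPM, and in tumour 862 at 15.5, 0.271, 0.0657, 0.979 and 55.0. Tumour 894 had 7.11, 16.5, 0 and 8.84 CPM, and tumour 884 had 0, 0, 1.61 and 1.29. The regions of 5 tumours thus ran from near 0 to above 15 CPM, and those of tumour 884 stayed low.

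Cfd had a within-tumour SD of 2.16 log2 (edgeR goodness-of-fit adjusted p = 3.53e-103), and its difference between tumours did not pass the test (edgeR quasi-likelihood F-test adjusted p = 0.521). Car3, a carbonic anhydrase of fat and muscle, was at 32.8, 1.11, 0.195 and 22.4 CPM in tumour 903 and had an SD of 2.01. Fabp4 and Lpl, which bind and release fatty acids, had SDs of 0.74 and 0.83. The marker of brown fat, Ucp1, was at 9.75 and 4.34 CPM in regions 1 and 7 of tumour 903 and at most 0.556 CPM elsewhere. Fat levels were low against normal thymus: the list summed to 36.7 to 517 CPM over the 25 regions and to 1740 to 20400 CPM over the 8 normal libraries. Across regions, deviations from the tumour mean of the fat and epithelial scores had a Pearson r of -0.50 (n = 25) and of -0.56 in the 22 libraries. These points come in groups of 4 or 5 from 1 tumour, and both scores of a point come from 1 library.

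Genes of macrophages, which clear dying thymocytes, varied as well. Of 12 measured members 10 were region-variable, against 10.4% of all genes, with a median SD of 0.47 log2. The complement gene C1qa was at 82.9, 50.4, 77.3, 167 and 181 CPM in tumour 862 and at 190, 153, 416 and 193 CPM in tumour 908, and regions 7 and 9 of the first and 7 of the second were the high ones. Both regions numbered 7 are among the 3 libraries that stand apart. Mrc1, the mannose receptor, was at 51.7, 23.9, 33.6, 51.1 and 99.0 CPM in tumour 862. Csf1r, the receptor for the macrophage growth factor, was at 44.1, 28.1, 36.5, 41.0 and 90.1 CPM there. Region 9 had the highest level of all 3 genes in that tumour. Cd14, a receptor for bacterial lipopolysaccharide, was not region-variable.

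Named genes outside the list included Marco, Saa3 and Cxcl13. Marco, a scavenger receptor of resident macrophages, was at 3.32, 0.86, 1.12, 3.76 and 42.9 CPM in tumour 862 and at 1.91, 17.9, 1.11 and 0.549 CPM in tumour 903. Saa3, an acute-phase protein, was at 8.37, 2.49, 0.46, 4.11 and 92.1 CPM in tumour 862 and at 2.65, 37.1, 0.521 and 0.165 CPM in tumour 903. In both of these tumours the same region was highest for both genes. In tumour 908 it was not: Saa3 was at 14.5, 2.3, 9.27 and 8.38 CPM and Marco at 4.31, 0.517, 3.56 and 28.4 CPM. In tumour 905 Saa3 was at 47.0, 9.98, 105 and 147 CPM and Marco at 6.86, 0.536, 20.7 and 23.9 CPM, with region 9 highest for both. Cxcl13, which draws B cells, was at 39.8, 6.61, 0.591, 17.9 and 126 CPM in tumour 862. The within-tumour SDs of Marco, Saa3 and Cxcl13 were 1.56, 1.75 and 1.63 log2, and all 3 were called with the 25 and with the 22 libraries.

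Antigen presentation and interferon genes followed. MHC class II genes, which present peptides to helper T cells, were region-variable in 4 of 7 cases, against 10.4% of all genes, with a median SD of 0.69 log2. They were called in 6 of 7 cases in the 22 libraries (median SD 0.77), against 9.42% of all genes. Cd74, the invariant chain, was at 341, 757, 123 and 691 CPM in tumour 905, where region 7 was again the low one, and at 33.3, 29.1, 85.5, 110 and 217 CPM in tumour 862. Interferon-stimulated genes were region-variable in 6 of 11 cases (Ifit1, Ifit2, Ifit3, Isg15, Irf7 and Oasl2), and 8 were called in the 22 libraries. Irf7 was at 31.8, 44.3, 14 and 43.3 CPM in tumour 905. Described across the 25 regions as deviations from the tumour mean, the macrophage and class II scores had r = 0.86, the epithelial and interferon scores r = 0.85, and the macrophage and mitosis scores r = -0.84. In the 22 libraries these were 0.86, 0.87 and -0.85. These pairs were picked from all pairs of the 30 lists. The class II score was closer to the dendritic cell score (r = 0.93, and 0.96 in the 22 libraries). The macrophage and cholesterol synthesis scores had r = -0.86 (-0.84 in the 22).

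Connective tissue genes varied in most of their members. Against 10.4% of all genes, fibroblast and collagen genes were called in 9 of 12 cases (median SD 0.70 log2), and pericyte and smooth muscle genes in 4 of 5 (0.61). Col1a1, the main fibrillar collagen, was at 43.5, 373, 400 and 254 CPM in tumour 884, at 93.9, 76.7, 17.5 and 67.6 CPM in tumour 894 and at 191, 162, 181 and 198 CPM in tumour 903. Region 2 of tumour 884 and region 5 of tumour 894 were low, and the regions of tumour 903 stayed between 162 and 198 CPM. Region 2 of tumour 884 is a library that stands apart, and without the 3 such libraries the list's median SD was 0.60. Pdgfra, the platelet-derived growth factor receptor of fibroblasts, was at 330, 41.5, 33.0 and 20.7 CPM in tumour 908 and at most 14.8 CPM in the other 5 tumours. Pdgfrb, its relative on pericytes, was at 170, 86.5, 105, 269 and 602 CPM in tumour 862. Of 9 endothelial genes 0 were region-variable, beside 10.4% of all genes, with a median SD of 0.41 (edgeR goodness-of-fit adjusted p from 0.244 to 1).

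**Figure D2:**
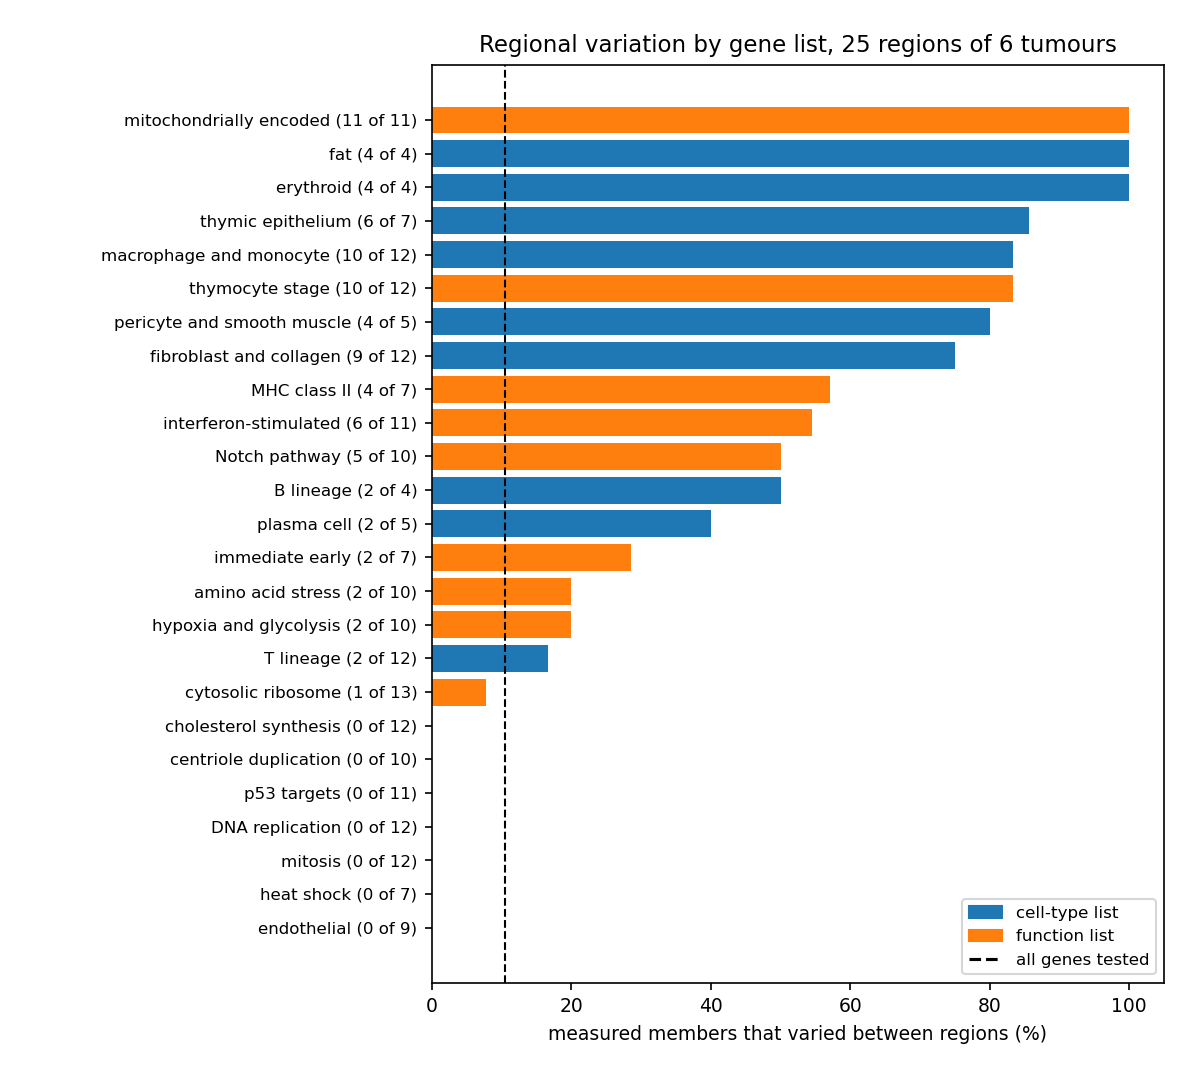
Share of the measured members of each gene list that varied between regions beyond genes of like abundance, in percent, for lists with at least 4 measured members; the counts stand beside each name. The dashed line is the share over all genes tested (10.4%), which the fibroblast, pericyte, epithelial, fat and mitochondrial lists exceed. The 7 lists with 0 members called, endothelial among them, lie below it.

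Genes of thymocyte stage, which mark how far a T-cell precursor has matured, were region-variable in 10 of 12 cases, against 10.4% of all genes (median SD 0.65 log2). Cd8a, the coreceptor of the cytotoxic lineage, was at 255, 263, 220, 182 and 95.0 CPM in tumour 862 and at 100, 18.9, 62.0 and 4.71 CPM in tumour 884. Il2ra, the interleukin-2 receptor chain CD25 of early thymocytes, was at 28.4, 19.5, 17.8, 45.5 and 191 CPM in tumour 862 and at 176, 324, 84.5 and 217 CPM in tumour 908. Il7r, the interleukin-7 receptor, was at 2.07, 1.45, 2.50, 4.82 and 19.9 CPM in tumour 862. Region 9 of that tumour had the lowest level of the coreceptor and the highest of both cytokine receptors. Ptcra, the pre-T-cell receptor alpha chain, was at 58.5, 58.0, 42.1 and 11.4 CPM in tumour 908. In tumour 903 it was at 68.3, 54.5, 59.3 and 71.4 CPM. In the 22 libraries, which leave out region 2 of tumour 884, 11 genes of the list were called.

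Of 12 general T-lineage genes 2 were region-variable (Cd247 and Gata3), near the share of 10.4% over all genes, with a median SD of 0.26 log2 against 0.25. Cd247, the CD3 zeta chain, was at 693, 145, 218 and 154 CPM in tumour 884, and it was not called in the 22 libraries, which leave region 2 of that tumour out (adjusted p = 1). Of 10 measured Notch pathway genes 5 were called (50%, beside 10.4% of all genes), and 7 in the 22 libraries. Notch1, the receptor that commits precursors to the T lineage, was at 111, 7.99, 20.1 and 19.3 CPM in tumour 884 and between 480 and 1790 CPM in the regions of the other 5 tumours. Dtx1, a Notch target, was at 285, 506, 474 and 884 CPM in tumour 908 and at 739, 712, 711 and 757 CPM in tumour 903. Within-tumour shares of the variance were 9.4% for Notch1 and 2.4% for Dtx1.

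Receptor segments gave the same leading beta segment in all regions of 5 tumours and different ones in tumour 884. As a share of the counts over 35 Trbv segments, Trbv29 took 99.1%, 98.8%, 98.3% and 99.2% in tumour 905. Trbv13-2 took 94.1%, 93.7%, 92.8% and 92.9% in tumour 908, and Trbv13-1 took 93.0%, 91.8%, 93.8% and 92.3% in tumour 903. In tumour 862 Trbv13-1 took 61.1%, 60.8%, 61.1%, 60.8% and 55.5% in regions 1, 3, 5, 7 and 9; Trbv14 came second in 4 of them and Trbv13-2 in region 7, a library that stands apart. In tumour 894 Trbv13-3 took 86.7%, 89.0%, 89.8% and 78.1%, and Trbv5 took 10.1% in region 7 against 0% to 0.301% in the other 3 regions.

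In tumour 884 Trbv20 took 90.2% of the counts in region 2 (Wilson 95% interval 89.64 to 90.82), 7.17% in region 5 (5.62 to 9.1), 38.5% in region 6 (36.85 to 40.13) and 0.506% in region 8 (0.23 to 1.1). Trbv13-2 took 7.87%, 75.0%, 51.1% and 80.9% of the same counts. The leading segment therefore changed from Trbv20 in region 2 to Trbv13-2 in regions 5 and 8, with both in region 6. Intervals cover counting error only, and the 4 shares rest on 9719, 851, 3384 and 1186 counts. Trbv20 was region-variable with an SD of 1.42 log2 (edgeR goodness-of-fit adjusted p = 1.04e-40), and remained so in the 22 libraries without region 2 (adjusted p = 3.61e-07).

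The constant segments of tumour 884 also differed between regions. Trbc1 took 0.657%, 54%, 38.8% and 58.6% of the counts over the 2 beta constant segments in regions 2, 5, 6 and 8. Region 2 is a library that stands apart. Region 7 of tumour 862 and region 7 of tumour 908, which also stand apart, had the lowest Trbc1 share of their tumours. These were 52.0% against 62.1% to 71.4%, and 52.4% against 61.4% to 64.7%. The part of that in the share of region 2 was not tested. The gamma constant segments summed to 1570, 33.7, 129 and 34.5 CPM in regions 2, 5, 6 and 8 of tumour 884. Tcrg-C2 was region-variable over the 6 tumours (SD 1.62 log2). In tumour 903, where the delta constant segment Trdc took 89.1% to 93.6% of the alpha and delta constant counts, the gamma segments stayed between 900 and 1120 CPM.

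**Figure D3:**
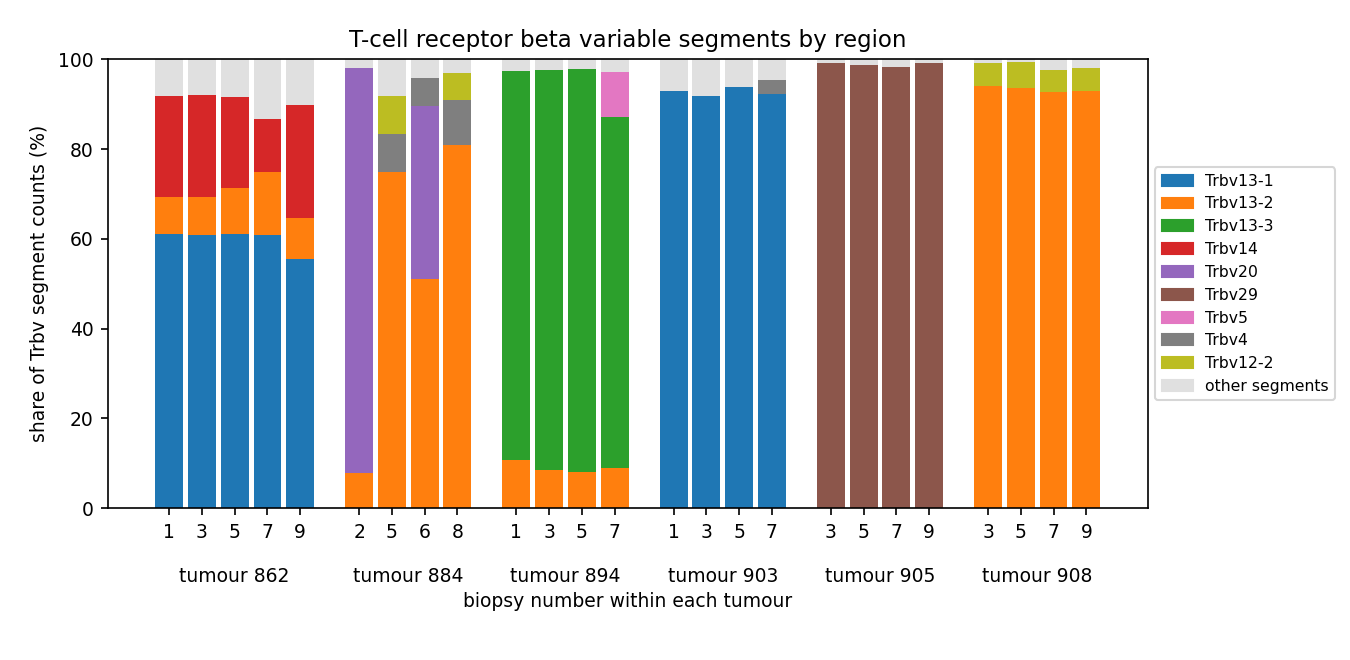
Share of beta variable segment counts per region, in percent, stacked by segment for up to 3 leading segments of at least 3% in each library, with the rest as other segments. Tumour 884 changes its leading segment between regions, and the other 5 tumours keep theirs.

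Beyond the receptors, region 2 of tumour 884 differed from its other regions in many genes. Of 10435 protein-coding genes, 1722 differed by at least 1 log2 unit between region 2 and the mean of regions 5 and 8, 903 of them higher and 819 lower in region 2. Region 2 is 1 of the 3 libraries that stand apart, and the part of that in this count was not tested. The labels place all 4 regions in mouse 884, and whether region 2 came from the same lesion as the others was not tested. Without region 2 the median within-tumour share of variance over all 6 tumours was 22.2%. Genes of region 2 included Ccr9, a homing receptor, at 478 CPM against 79, 163 and 99.6, and the B-cell kinase gene Blk at 59.3 CPM against 1.18, 1.70 and 0.428. The CDK inhibitor gene Cdkn1a was at 19.1 CPM in region 2 and at 108, 77.8 and 99.8 in regions 5, 6 and 8, though its spread did not pass the test over all tumours (edgeR goodness-of-fit adjusted p = 0.449).

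Red-cell and B-cell genes varied as well. Against 10.4% of all genes, all 4 measured erythroid genes were region-variable (median SD 0.91 log2), and Hbb-bs, adult beta globin, was at 434, 151, 141, 1590 and 214 CPM in tumour 862 and at most 5.69 CPM in every region of tumours 894 and 903. The high region 7 of tumour 862 is a library that stands apart. Of 4 measured B-lineage genes, Cd79a and Blk were region-variable, and 0 were called in the 22 libraries, where those 2 fell under the abundance minimum. Cd79a was at 67.2, 7.99, 9.18 and 12 CPM in tumour 884 and at 2.38, 0.704, 28.7 and 53.3 CPM in tumour 908. The high region 2 of tumour 884 is a library that stands apart, and the high region 9 of tumour 908 is not. Igkc, the kappa light chain of antibody-secreting cells, was at 1160, 302, 269 and 202 CPM in tumour 884 and at 205, 11.3, 254 and 421 CPM in tumour 908. Its SD was 1.57, and it was called with and without the 3 libraries.

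All 11 measured mitochondrially encoded genes were region-variable, against 10.4% of all genes (median SD 0.74 log2). mt-Nd1, a subunit of respiratory complex I, was at 1090, 318, 538 and 1130 CPM in tumour 894 and at 2080, 1740, 7590 and 2810 CPM in tumour 908. The lowest of the first series is the library rich in ribosomal RNA, and the highest of the second is a library that stands apart. mt-Co3, a subunit of cytochrome oxidase, had the widest spread of the named genes (SD 2.89) and was at 490, 0.888, 0.284 and 668 CPM in tumour 884, where mt-Nd1 was at 2320, 3400, 1840 and 4480. mt-Nd3 was at 0, 0, 37.7 and 64.0 CPM in the same regions. These genes have copies in the nuclear genome that share their reads, so both levels are uncertain. Small structured RNAs stood out in region 3 of tumour 894, the library rich in ribosomal RNA: Rpph1, the RNA of ribonuclease P, was at 1.82, 203, 5.38 and 2.21 CPM, and Rn7s2, a signal recognition particle RNA with many copies, at 9.54, 371, 18.5 and 8.50. The part of RNA content in that result was not tested. Eno1b, which resembles the enolase gene Eno1, was at 5.48, 6.39, 409 and 20.4 CPM in tumour 908 and at 18.4, 30.0, 8.02, 257 and 55.3 CPM in tumour 862. Both high regions are among the 3 libraries that stand apart, and its SD was 1.56 with them and 0.96 without.

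Lists with 0 region-variable members included mitosis (0 of 12, median SD 0.20 log2), DNA replication (0 of 12), centriole duplication (0 of 10) and p53 targets (0 of 11, median SD 0.34). Heat shock (0 of 7), cholesterol synthesis (0 of 12) and skeletal muscle (0 of 1) were also without a call. In the 22 libraries 2 mitosis genes were called. Called members numbered 2 of 7 among immediate early genes (28.6%), 2 of 10 in hypoxia and glycolysis and in amino acid stress (20% each) and 1 of 13 in cytosolic ribosome (7.7%), beside 10.4% of all genes. In the 22 libraries these were 1, 1, 2 and 0. Of short lists, plasma cell had 2 of 5, replication-dependent histones 2 of 3, dendritic cell 1 of 2, and neutrophil and mast cell and NK and cytotoxic 1 of 1 each. In the 22 libraries 1 histone gene and 2 dendritic cell genes were called. Plk4 was at 94.7, 97.4, 93.8, 85.3 and 71.1 CPM in tumour 862, at 48.4, 30.8, 39.0 and 39.0 in tumour 884, and had an SD of 0.18; the transgene and the endogenous gene cannot be told apart in these counts. Mki67, a marker of cycling cells, ran from 352 to 906 CPM over the 25 regions (SD 0.39, edgeR goodness-of-fit adjusted p = 0.278). These tests ask whether a gene varied more than genes of like abundance, so a miss does not show that regions were alike.

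Other genes differed between tumours and were not region-variable. Pcsk1, a prohormone-processing enzyme, was at 247, 173, 109 and 215 CPM in tumour 884 and at most 0.927 CPM in every other region. Arsi, a sulfatase, was at 187, 215, 216, 184 and 125 CPM in tumour 862 and below 1.51 CPM in tumours 884 and 908. Their between-tumour SDs were 2.93 and 3.03 log2 and their within-tumour SDs 0.27 and 0.31. Rims4, with SDs of 3.0 and 0.3, had its highest level in tumour 894 (up to 153 CPM). The Y-linked genes Ddx3y and Eif2s3y, at 56.1 to 139 and 41.2 to 114 CPM in the regions of mouse 908 and under 0.46 CPM elsewhere, followed the sex label.

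Whole chromosomes were compared through the median log2 level of their genes against the mean of normal thymuses, centred in each library. Copy number of DNA was not measured. The part of the 7 normal libraries that stand apart in these levels was not tested. Spans between regions were taken against the tumour's own mean instead, and autosomes that spanned at least 0.2 log2 numbered 3 of 19 in tumour 862, 5 in 884, 1 in 905, 6 in 908 and 0 in 894 and 903. Without the 3 libraries the counts were 3, 0, 1, 4, 0 and 0 in the same order as tumours 862, 884, 905, 908, 894 and 903.

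In tumour 862 chromosome 19 was at -0.92, -1.05, -0.89, -0.61 and -0.57, and chromosome 11 at 0.34, 0.4, 0.35, 0.26 and 0.07. Chromosome 19 was thus low in every region, and less so in regions 7 and 9. In tumour 908 chromosome 16 was at 0.36, 0.42, 0.25 and 0.06, and chromosome 15 at 0.38, 0.36, 0.53 and 0.66. In tumour 884 chromosome 15 was at 0.59, 0.87, 0.81 and 0.9, and chromosome 17 at 0.19, -0.23, -0.14 and -0.29, with region 6 between region 2 and the others in both. Without region 2, the widest span of tumour 884 was 0.13. Chromosomes 4 and 5 varied mainly between tumours, with 2.8% and 2.5% of the variance within them, and chromosome 2 had 60.2% within. Chromosome 2 spanned at least 0.2 log2 in tumour 884 alone, and in no tumour without the 3 libraries.

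**Figure D4:**
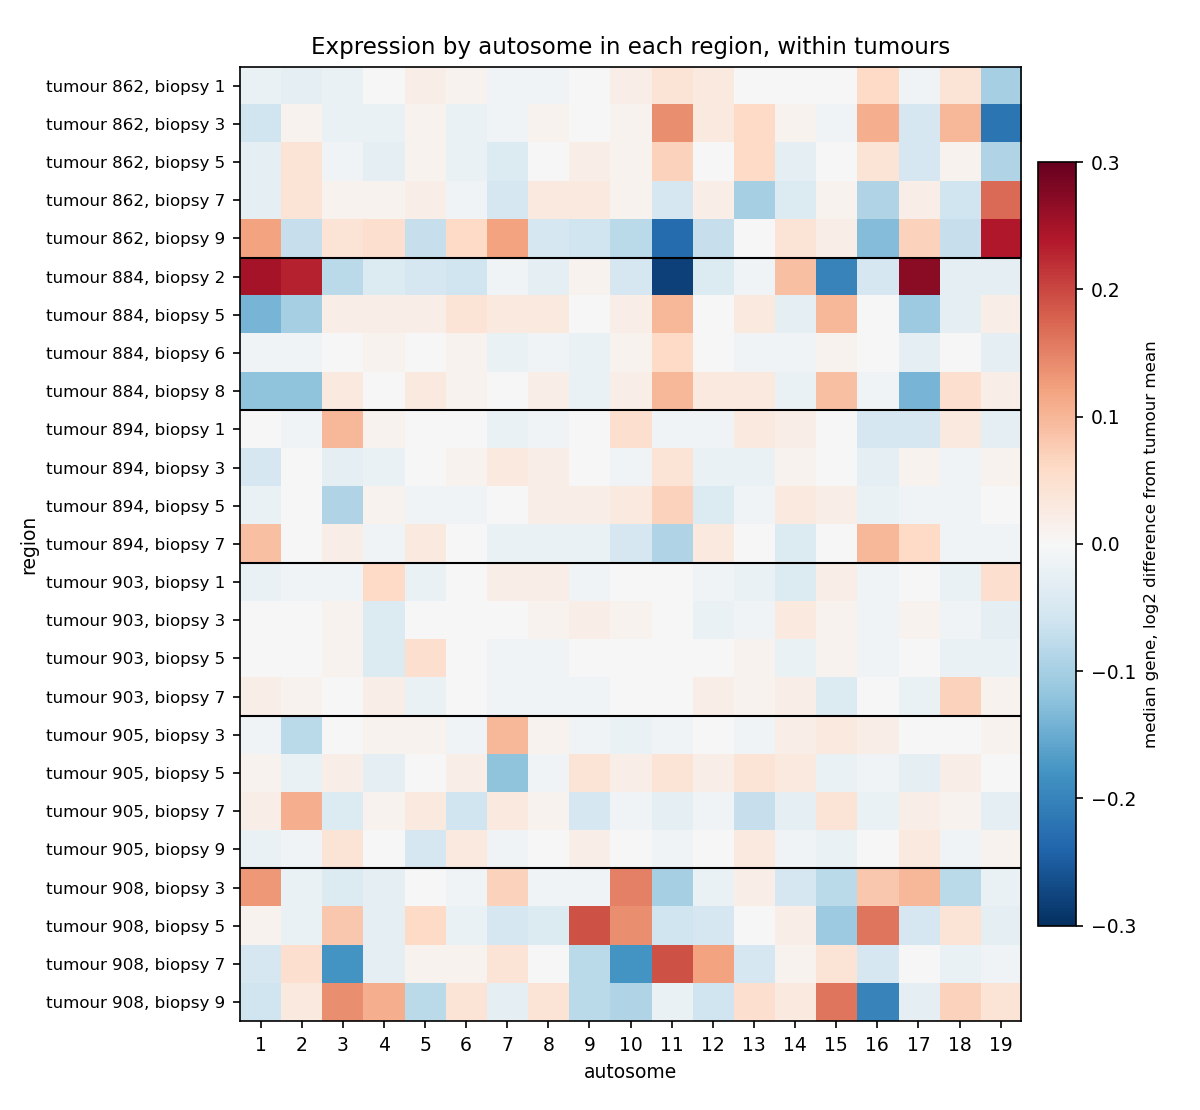
Median gene of each autosome in each region, as the log2 difference from that tumour's mean, in a colour scale from -0.3 to 0.3. Tumour 903 spans at most 0.1 on any autosome, and tumours 862, 884 and 908 have 3, 5 and 6 autosomes that span at least 0.2.

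The p53-/- tumours held many of the same region-variable genes. Among 10793 genes tested in both sets, 1043 were called in the 6 treated p53+/- tumours and 1083 (10%) in the 7 p53-/- tumours, and 672 were called in both, which is 64.4% of the first list and 62.0% of the second. Without the libraries that stand apart 608 were shared, which is 63.9% of the first list. In all 7 p53-/- tumours 1275 of 11373 genes (11.2%) were called. Krt5 had a within-tumour SD of 2.3 log2 there against 1.85 in the p53+/- tumours, and Cfd 1.42 against 2.16. In each set 6 genes of the epithelial list and 4 of the fat list were called. Other lists had unlike counts in the p53+/- and p53-/- sets: 10 and 5 for macrophages, 4 and 7 for MHC class II, and 0 and 2 for endothelium, differences that were not tested. In the 22 p53+/- libraries the class II count was 6. With the 3 treated p53-/- tumours alone, 39.8% of the p53+/- list was called, where 5.8% of all genes tested in both were called.

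The extent of regional variation was compared between groups with the tumour as replicate. The regional biological coefficient of variation, edgeR's common dispersion within 1 tumour as a square root, was 0.255, 0.335, 0.193, 0.099, 0.239 and 0.281 in tumours 862, 884, 894, 903, 905 and 908. Its mean was 0.234 ± 0.081 (SD, n = 6), against 0.278 ± 0.058 (n = 3) in treated p53-/- tumours (difference -0.045, two-sided exact permutation p = 0.429, adjusted over 4 tests 0.571) and 0.209 ± 0.065 (n = 4) in untreated p53-/- tumours (difference 0.025, exact permutation p = 0.619, adjusted 0.619). Neither difference exceeded the spread between tumours. The value of tumour 884 was 0.149 without region 2. Without all libraries that stand apart the differences were -0.083 (exact permutation p = 0.0952) and 0.017 (exact permutation p = 0.676).

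Chromosome spread, the mean over autosomes of the SD among regions of the autosome's median log2(CPM + 1), was 0.06 ± 0.022 log2 (SD, n = 6). It was 0.08 ± 0.005 (n = 3) in treated p53-/- tumours (difference -0.02, exact permutation p = 0.19, adjusted 0.438) and 0.043 ± 0.012 (n = 4) in untreated p53-/- tumours (difference 0.017, exact permutation p = 0.219, adjusted 0.438). The smallest p these sizes allow are 0.0238 and 0.00952. Without tumour 908 the first difference was -0.026 (unadjusted exact permutation p = 0.0357), so 1 tumour decides which side of 0.05 it falls on.

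**Figure D5:**
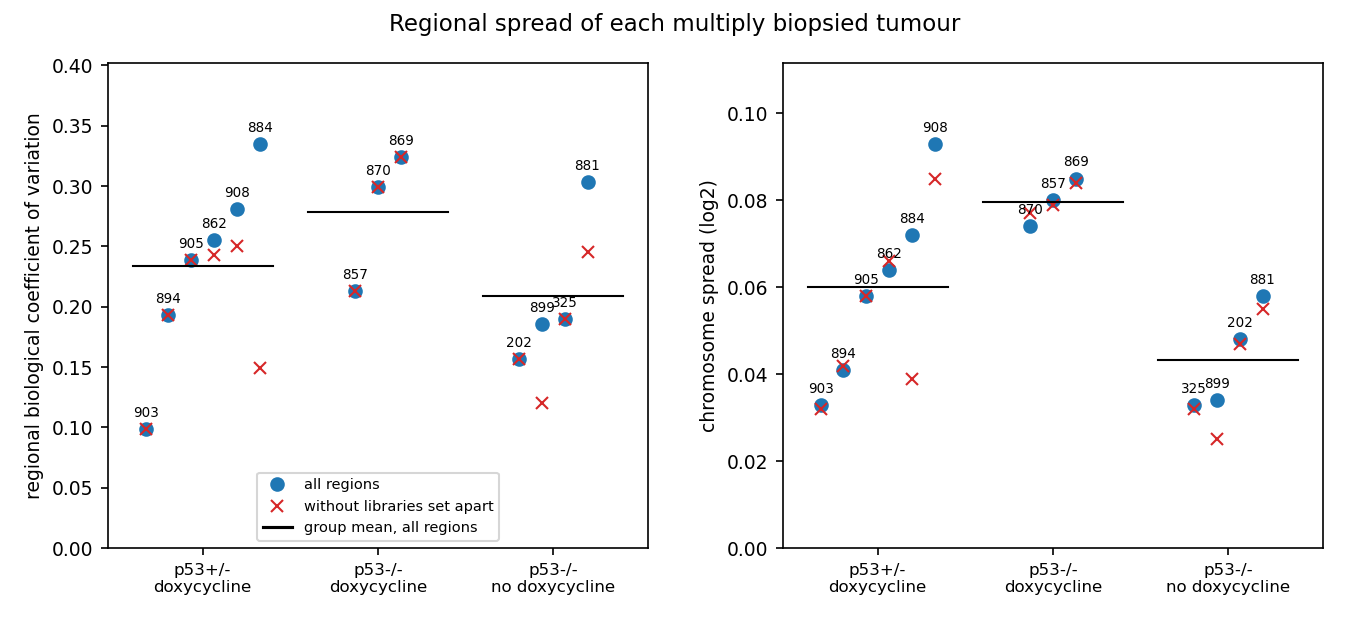
Regional coefficient of variation (left) and chromosome spread in log2 (right) of each multiply biopsied tumour, by group, with crosses for values without the libraries that stand apart and lines for group means. The 6 p53+/- tumours span 0.099 to 0.335 on the left, overlapping both p53-/- groups.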

How the data were processed

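RNA of the 25 regions was extracted with a combined DNA and RNA column kit from frozen biopsies, per the labels' protocols. The authors deposited expected counts per gene (RSEM estimates, which divide ambiguous reads between genes) for 51826 genes and 81 libraries, with 14.25% of cells not whole. CASAVA 1.8, fastp, STAR 2.7.2b, RSEM 1.1.17 and the build mm10 are named in the submitters' processing notes; strandedness is not given in the sources used here. Gene types and coordinates are those of GENCODE M21 (GRCm38), which held 99.63% of the IDs.

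Counts were rounded. Genes with a mean of at least 5 CPM on library totals were kept and scaled by TMM factors, which the printed CPM of regions include and those of normal thymus do not, in edgeR 4.0.16 and R 4.3.3 (limma 3.58.1 and DESeq2 1.42.0 as alternatives). A quasi-likelihood F-test compared tumours, and the goodness-of-fit of that model with trended dispersion gave region-variable genes, both at a Benjamini-Hochberg adjusted p under 0.05. Variance was split on log2(CPM + 1). Tumour-level differences used two-sided exact permutation tests. Wilson intervals at 95% accompany receptor shares.

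Named genes were region-variable genes, without receptor segments, pseudogenes or unnamed genes: the 12 with the largest pooled SD, the 8 with the largest median SD and the 2 with the largest range in each tumour, plus 5 genes that differed between tumours and were not region-variable. Members of 30 fixed lists were named besides, and other genes were chosen after their values were seen. The members and lists were chosen with earlier results of these data known. The labels do not show that regions are independent samples beyond being separate biopsies. Goodness-of-fit p-values set a gene's spread between places in a tumour against that of genes of like abundance. F-test p-values set differences between tumours against the spread between places. Permutation p-values rest on 1 value per tumour. As a check for repeated deposits of a library, regions were compared in pairs within tumours; the closest pair (884, regions 5 and 8) had a mean chi-square of 5.46 per gene and a median of 1.03, and no libraries were merged.

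On simulated data for 11104 genes, the region-variation test recovered 70 of 100 genes with an added SD of 0.5 log2 and 99 of 100 with 1, with 6 false calls. The test between tumours recovered 78 and 98 of 100, with 8 false calls. Before the added change, every simulated gene had a dispersion exactly on the abundance trend. These false calls therefore do not give the error rate among the real calls. Alternatives were scaling, abundance minimum, other tools, a biopsy-number block, and leaving out libraries or tumours. Those without the libraries that stand apart were added after seeing the data.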

Additional observations from a re-analysis of the deposited data

Results flagged for a closer look

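Among 100 groups of regions of 1 tumour for the named genes, 15 held a region far from the others for the size of the group. Chance gives about 1 in 20 in unselected groups, which does not apply here because most of these genes were named for their spread between regions. Of the 15 values, 3 belong to the libraries that stand apart. In each sentence the values in brackets are the lowest and highest of the tumour's other regions.

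Region 9 of tumour 862 held 3 of them: Cfd at 55.0 CPM (0.0657 and 15.5), Saa3 at 92.1 CPM (0.46 and 8.37) and Marco at 42.9 CPM (0.86 and 3.76). Region 3 of tumour 903 held Saa3 at 37.1 CPM (0.165 and 2.65) and Marco at 17.9 CPM (0.549 and 1.91). Marco was also apart in region 9 of tumour 908 at 28.4 CPM (0.517 and 4.31) and in region 2 of tumour 884 at 0.25 CPM (0 in all others), where the value rests on 3 counts.

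Region 7 of tumour 894 held Fcgbp at 10.2 CPM (0.0735 and 0.916) and Csn2 at 2.83 CPM (0 and 0.147). Region 3 of tumour 894 held Rpph1 at 203 CPM (1.82 and 5.38) and Rn7s2 at 371 CPM (8.50 and 18.5), and region 1 of tumour 862 held the same genes at 10.9 CPM (1.05 and 1.99) and 44.9 CPM (3.29 and 8.54). Eno1b was apart in region 7 of tumour 862 at 257 CPM (8.02 and 55.3) and in region 7 of tumour 908 at 409 CPM (5.48 and 20.4).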

How the results depend on the processing

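Genes that differed between tumours numbered 10239 to 10628 with each library left out and 9671 to 10172 with each tumour left out, and region-variable genes 1073 to 1161 and 969 to 1097. DESeq2 dispersion outliers, a stricter rule, gave 234 in place of 1151; the cause was not tested. The median within-tumour share of 27% ran from 22.2% to 28.1% over libraries left out (22.2% without region 2 of tumour 884, 24.9% without region 9 of tumour 862) and from 24.5% to 30.0% over tumours left out. It was 20% without the 3 libraries that stand apart, 23.7% as sums of squares and 24.7% with counting variance subtracted. The share of the p53+/- list also called in p53-/- tumours was 70.1% with a common dispersion and 39.8% with the 3 treated tumours only. Leaving out tumours, the difference in coefficient of variation ran from -0.078 to -0.018 against treated and from 0.005 to 0.056 against untreated p53-/- tumours, and that in chromosome spread from -0.026 (p = 0.0357, exact permutation, without tumour 908) to -0.014 and from 0.01 to 0.022.

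Biopsy numbers recur across tumours. With the biopsy number as a replicate block 10432 genes differed between tumours and 912 were region-variable. Same-numbered libraries of different tumours had correlations of deviations from -0.23 to 0.67 (median 0.09, 19 of 41 pairs over 0.1), and differently numbered ones a median of -0.02 with 53 of 219 over 0.1. Of 25 libraries 7 correlated best with their own number. Since not every same-numbered pair was over 0.1 and the labels tie a number to nothing shared, the number was not used for pairing.

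For the 21 named genes, 176 of 178 alternative values kept their side of the threshold and 2, both Pcsk1, crossed it. Of 267 list medians 257 moved by less than their spread between tumours. Those that moved were B lineage (0.84 to between 0.46 and 0.53 without the 3 libraries, region 2 of tumour 884 or that tumour), p53 targets (0.34 to 0.26 without the 3 libraries), and, with other abundance minimums and so other genes tested, thymic epithelium (0.36), fat (0.79), endothelial (0.18) and p53 targets (0.20) at 20 CPM, and dendritic cell (0.61 to 0.32) and skeletal muscle (0.22 to 0.44) at 1 CPM. Depth limits the zeros: 3 counts are 0.158 to 0.888 CPM in the libraries at 0.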
